A study of Mus musculus with 6 samples.

Results

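Cytotoxic lymphocytes kill by releasing the content of secretory granules at the contact with a target cell, and the 9 genes described here encode parts of that release: the synaptotagmin-like proteins Sytl1, Sytl2 and Sytl3, the small GTPase Rab27a, the docking and fusion proteins Unc13d, Stx11 and Stxbp2, and the granule proteins Gzmb and Prf1. All 9 of these symbols are among the 24421 genes of the table, and all 9 had a mean of at least 0.5 RPKM (a read count corrected for the gene's length and the library's depth), the minimum for being tested, as did 11360 genes in all. The members were chosen by measured values: Sytl1 was selected on its difference between the groups in these same samples, and the others because they act in the same pathway, with their results known. The differences of the members are therefore given as a description with their standard errors and without p-values.

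RNA was measured in wild-type (WT) mouse T cells: naive CD4 cells taken from spleen and driven towards Th17, the helper type that makes interleukin 17. One group of 3 samples received 10 nM pemafibrate, a drug that activates the nuclear receptor PPARalpha, until day 2, and the other group of 3 received vehicle. Both were cultured in IMDM with 10% serum and fed with the same medium for 2 further days. The sample titles carry the numbers 3, 4 and 7 for vehicle and 3, 7 and 8 for pemafibrate. Nothing in the labels says that the 3 samples of a group are different animals or cultures. Errors and p-values therefore cover only how these samples vary, and that variation may be technical.

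In cytotoxic cells Rab27a sits on mature granules and recruits effectors that tether them to the plasma membrane, among them the synaptotagmin-like proteins and Munc13-4, the product of Unc13d. Munc13-4 primes the docked granule, and syntaxin 11 (Stx11), with its chaperone Munc18-2 (Stxbp2), serves in fusion. Perforin (Prf1) then forms pores through which granzyme B (Gzmb), a protease, enters the target cell. In humans, inherited loss of PRF1, UNC13D, STX11 or STXBP2 causes familial hemophagocytic lymphohistiocytosis, and loss of RAB27A causes Griscelli syndrome. Helper T cells carry the same secretory genes to varying degrees.

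The promoter windows run from 250 bases before to 50 bases after the RefSeq start (GRCm38.p6). They are shown for a pair of members that were higher after pemafibrate (Sytl1 and Sytl3). The others are those of both granule protein genes, whose mean RNA levels were lower. Capitals mark matches, on either strand, to TGTGGT, the core bound by RUNX factors, to AGGTCA, the core bound by nuclear receptors, and to TGANTCA, the site of AP-1. The windows lie at chr4:133263038-133263337 (minus strand) for Sytl1, chr17:6658809-6659108 (plus strand) for Sytl3, chr14:56262285-56262584 (minus strand) for Gzmb and chr10:61297586-61297885 (plus strand) for Prf1, and each is written 5′ to 3′ along its gene's strand.
Sytl1: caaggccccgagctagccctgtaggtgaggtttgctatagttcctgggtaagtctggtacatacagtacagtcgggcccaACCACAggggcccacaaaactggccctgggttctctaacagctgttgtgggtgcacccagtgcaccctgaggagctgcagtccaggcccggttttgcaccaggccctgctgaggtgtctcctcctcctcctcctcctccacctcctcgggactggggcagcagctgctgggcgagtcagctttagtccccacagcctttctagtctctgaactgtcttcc
Sytl3: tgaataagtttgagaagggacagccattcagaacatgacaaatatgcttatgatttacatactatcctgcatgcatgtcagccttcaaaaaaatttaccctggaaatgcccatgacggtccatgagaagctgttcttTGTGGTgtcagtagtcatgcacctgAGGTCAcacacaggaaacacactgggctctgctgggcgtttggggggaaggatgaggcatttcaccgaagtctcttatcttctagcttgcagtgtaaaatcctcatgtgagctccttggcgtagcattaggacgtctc
Gzmb: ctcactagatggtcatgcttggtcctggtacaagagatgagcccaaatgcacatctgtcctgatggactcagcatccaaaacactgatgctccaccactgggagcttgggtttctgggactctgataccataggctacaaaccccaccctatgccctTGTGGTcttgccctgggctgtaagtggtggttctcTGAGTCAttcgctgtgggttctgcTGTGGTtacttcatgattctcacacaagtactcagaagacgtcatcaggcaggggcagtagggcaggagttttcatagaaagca
Prf1: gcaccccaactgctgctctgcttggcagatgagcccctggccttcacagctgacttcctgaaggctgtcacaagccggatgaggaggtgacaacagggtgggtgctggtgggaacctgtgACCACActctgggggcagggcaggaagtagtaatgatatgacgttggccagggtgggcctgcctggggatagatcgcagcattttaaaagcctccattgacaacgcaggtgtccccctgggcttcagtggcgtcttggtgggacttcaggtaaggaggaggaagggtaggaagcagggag

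RefSeq windows were at hand for 7 of the 9 members, 8 windows in all. The RUNX core occurred once in the windows of Sytl1, Sytl3 and Prf1 and in 1 of 2 windows of Rab27a, and at 2 places in that of Gzmb, where the AP-1 site lies between them, 58 bases before the start. The nuclear receptor core occurred in the Sytl3 window alone, 88 bases before the start used for that window. That start, like the one used for Prf1, lies inside the gene's span as given below. The Sytl3 window begins at base 6658809 and the span at 6658133, so the whole window lies within the span. Of all 32851 RefSeq windows of this length, 16.8% hold the RUNX core, 16.3% the nuclear receptor core and 7.81% the AP-1 site. The 3 motifs do not overlap each other in the printed windows. A match describes the letters only, and no binding was measured.

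The libraries held 14935351 to 18322467 reads, and a single read stood for 0.0273 to 0.0335 RPKM in a gene 2 kilobases long. Samples of the same group were not duplicates of each other, with differences beyond counting noise in every pair (chi-square per degree of freedom from 2.77 to 8.27). The summed level of 10 CD4 T and Th17 markers ran from 2994 to 3174 RPKM in vehicle and from 2539 to 2849 RPKM in pemafibrate, and none of them was at 0 in all samples. The sum was dominated by the cytokine gene Il17f, at 1621 and 1286 RPKM, while Cd4 measured 140 and 154 RPKM and Cd2 587 and 583. Limma called 2 of these 10, Ccr6 as higher and Il23r as lower, against 0.352% of all tested genes. Voom called 4, adding Il17a and Il17f as lower, against 1.25% of all genes. The 14 mast cell, basophil and myeloid markers summed to 12.8 to 17.5 RPKM in vehicle and 11.7 to 16.1 in pemafibrate, and the 9 B cell and platelet markers to 5.88 to 7.58 and 5.85 to 6.91 RPKM, with Gp9 at 0 in every sample.

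The order of the members by level was nearly the same in both groups. Gzmb was the highest, with a mean of 67.9 RPKM in vehicle and 60.2 in pemafibrate, followed by Stx11 with 55.1 and 54.5. Stxbp2, Unc13d and Rab27a lay together between 34.5 and 40.5 RPKM in all samples, and their order differed between the groups. In vehicle the range of Rab27a overlapped those of Stxbp2 and Unc13d, while Stxbp2 lay wholly above Unc13d, and in pemafibrate all 3 ranges overlapped. Sytl1 came next, below Rab27a in every sample. The ratio of Sytl1 to Rab27a, per length, was 0.280, 0.323 and 0.331 for vehicle 3, 4 and 7 and 0.438, 0.430 and 0.437 for pemafibrate 3, 7 and 8. Prf1 lay below that, and Sytl3 and Sytl2 were the lowest. Sytl3 and Sytl2 overlapped in vehicle but not in pemafibrate, where Sytl3 was the higher in every sample.

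**Figure D1:**
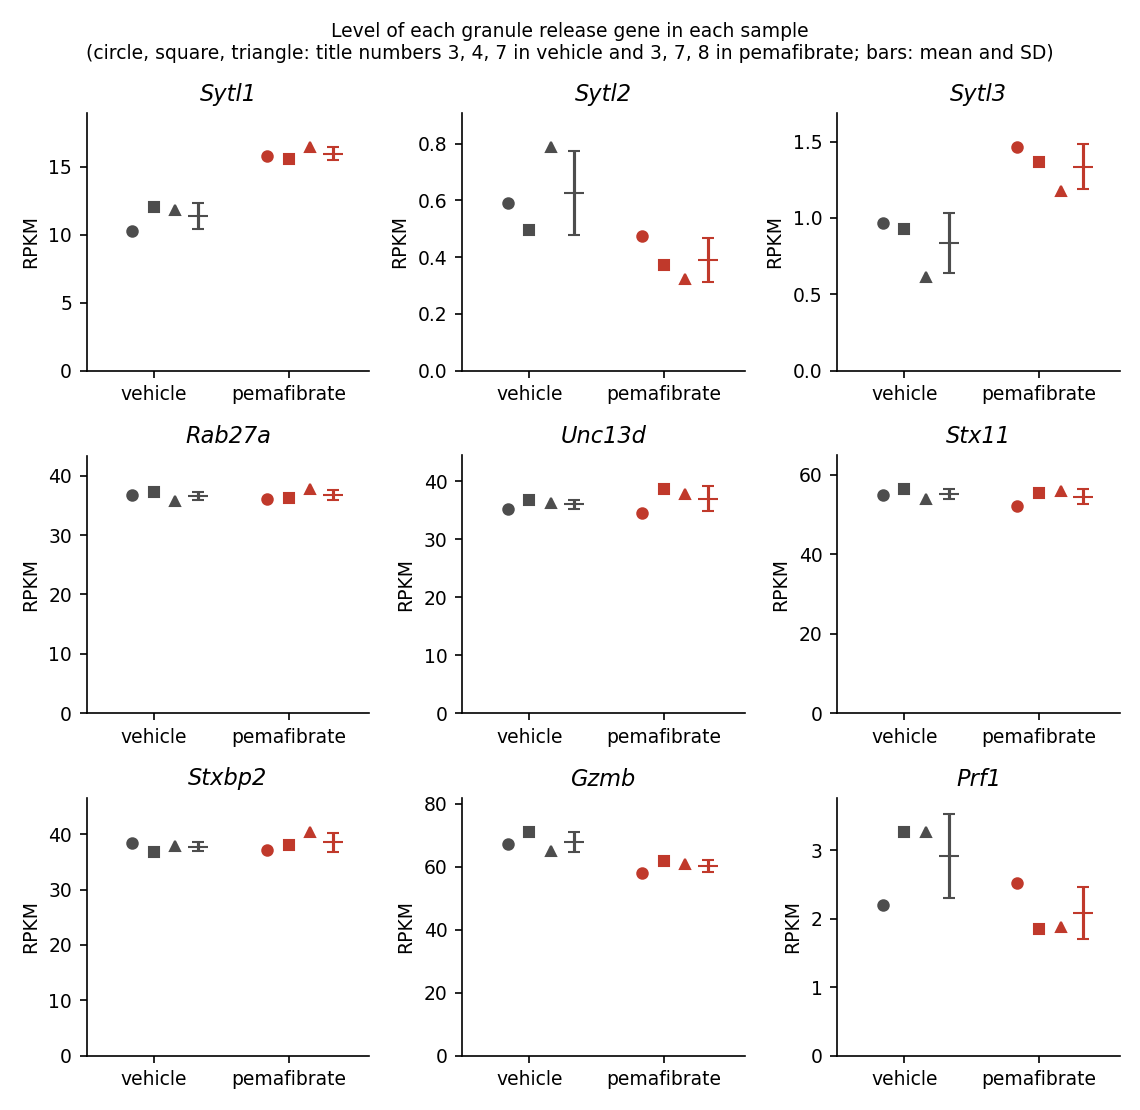
RPKM (vertical axes, from 0) of each of the 9 genes in the 3 vehicle samples (grey) and the 3 pemafibrate samples (red), with the mean and SD beside the points. Sytl1 and Sytl3 lie higher in every pemafibrate sample, Gzmb and Sytl2 lower, and Rab27a, Unc13d, Stx11, Stxbp2 and Prf1 overlap between the groups.

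Of the 3 synaptotagmin-like genes, Sytl1 and Sytl3 had higher means after pemafibrate and Sytl2 a lower one, and Sytl1 was by far the most abundant of the 3. Sytl1 (Slp1; chromosome 4, 133253090 to 133263087, minus strand, GRCm38) encodes a protein that binds Rab27 at its N-terminal end and membranes through C2 domains. It measured 10.3, 12.0 and 11.9 RPKM in vehicle 3, 4 and 7 and 15.8, 15.6 and 16.5 RPKM in pemafibrate 3, 7 and 8. The pemafibrate samples lay wholly above the vehicle samples, and vehicle 3 was the lowest of all. The means were 11.4 ± 0.955 and 15.98 ± 0.463 RPKM (SD, n = 3 each), 40.2% higher after pemafibrate, a log2 difference of 0.47 ± 0.07 (SE) on the log2(RPKM + 0.5) scale. These values rest on 359 to 396 recovered reads per vehicle library and 449 to 561 per pemafibrate library. The coefficient of variation was 8.37% in vehicle, above the 5.11% that counting alone gives at these read numbers, and 2.90% in pemafibrate, below the corresponding 4.37%.

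Sytl1 was the 1 member of 9 past an adjusted p of 0.05 in limma's test over all genes, which called 40 of 11360 (0.352%), 15 higher (0.132%) and 25 lower (0.220%). It was also the 1 member past that threshold with voom on the recovered reads, which called 148 of 11857 genes (1.25%), and in the authors' deposited table, which called 291 of 24421 (1.19%). Sytl1 was chosen for this difference and every one of these tests used the same 6 samples, so nothing is read from these counts. With any 1 of the 6 samples left out, Sytl1 was no longer past limma's threshold, and its log2 difference ran from 0.40 to 0.51. The count of 40 called genes fell to between 0, without pemafibrate 7, and 25, without pemafibrate 3.

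The genes on either side of Sytl1 had smaller differences, none of them past the threshold. Map3k6, a MAP kinase kinase kinase gene on one side, measured 0.571 and 0.579 RPKM in vehicle and pemafibrate (limma adjusted p = 0.989 for a log2 difference of 0.01 ± 0.13). Tmem222, a membrane protein gene on the other, measured 28.5 and 30.3 RPKM (limma adjusted p = 0.583 for a log2 difference of 0.08 ± 0.04). The next tested genes out, Wasf2 and Wdtc1, had log2 differences of -0.00047 ± 0.040 and -0.10 ± 0.05 and did not pass either (limma adjusted p of 0.999 and 0.667). Whether the difference of Sytl1 exceeds those of its neighbours was not tested.

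Sytl2 (Slp2; chromosome 7, 90302211 to 90410719), which tethers Rab27a-bearing granules to the plasma membrane in cytotoxic T cells, was expressed at a very low level and reached the mean of 0.5 RPKM needed for the fit only through the vehicle group. It measured 0.591, 0.497 and 0.789 RPKM in vehicle 3, 4 and 7 and 0.473, 0.371 and 0.324 RPKM in pemafibrate 3, 7 and 8. The groups did not overlap, but vehicle 4 and pemafibrate 3 were close, at 46 and 47 recovered reads. The log2 difference was -0.34 ± 0.16, with means of 0.626 ± 0.149 and 0.389 ± 0.0764 RPKM (SD, n = 3 each). The pseudocount of 0.5 RPKM is as large as the gene's level, and voom on the recovered reads, which uses no such pseudocount, gave -0.66 ± 0.23.

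Sytl3 (Slp3; chromosome 17, 6658133 to 6738070), known in cytotoxic T cells for linking granules to the motor kinesin-1, was also low. It measured 0.967, 0.929 and 0.612 RPKM in vehicle 3, 4 and 7 and 1.47, 1.36 and 1.18 RPKM in pemafibrate 3, 7 and 8. All pemafibrate samples lay above all vehicle samples, with 50 to 66 recovered reads against 26 to 43. The log2 difference was 0.47 ± 0.15 on the RPKM scale with the pseudocount and 0.69 ± 0.22 with voom. The 3′ end of Sytl3 meets that of Ezr, a gene on the opposite strand at 146 ± 5.53 RPKM in vehicle and 152 ± 2.64 in pemafibrate. The strand setting of the counting is not given, and the part of Ezr reads in the Sytl3 values was not tested.

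Summed over the 5 members of the Sytl family, the level was 11.9, 13.5 and 13.3 RPKM in vehicle 3, 4 and 7 and 17.8, 17.4 and 18.0 RPKM in pemafibrate 3, 7 and 8. Sytl1 made up 86.8% to 89.4% of that sum in vehicle and 89.0% to 91.6% in pemafibrate. Per length, most of the family's RNA was thus Sytl1 in every sample. The ratio of Sytl3 to Sytl2 was 1.64, 1.87 and 0.775 for vehicle and 3.10, 3.68 and 3.63 for pemafibrate, without overlap. This follows from the absence of overlap in Sytl3, which was higher, and in Sytl2, which was lower. The ratio rests on 26 to 74 recovered reads per gene and library. Sytl4 had 0 to 2 and Sytl5 0 to 1 recovered reads per library, too few to show a difference in these genes.

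The GTPase and the docking and fusion genes had nearly the same level with and without the drug. Rab27a (chromosome 9, 73044810 to 73097623) measured 36.7, 37.3 and 35.8 RPKM in vehicle 3, 4 and 7 and 36.1, 36.3 and 37.8 RPKM in pemafibrate 3, 7 and 8. The groups overlapped, and the log2 difference was 0.0050 ± 0.038, with a 95% interval, from limma's fit, from -0.08 to 0.09.

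Unc13d (chromosome 11, 116062095 to 116078495), the priming factor, measured 35.2, 36.8 and 36.2 RPKM in vehicle and 34.5, 38.7 and 37.8 RPKM in pemafibrate, in the same sample order. Its lowest and its highest value both fell in the pemafibrate group, and the log2 difference was 0.03 ± 0.05 (95% interval -0.08 to 0.15). Stx11 (chromosome 10, 12938217 to 12964498), the SNARE protein gene, measured 54.9, 56.4 and 54.0 RPKM against 52.2, 55.4 and 55.8 RPKM. These values overlapped as well, with a log2 difference of -0.02 ± 0.04 (95% interval -0.11 to 0.08). Stxbp2 (chromosome 8, 3630960 to 3643998), its chaperone, measured 38.4, 36.8 and 37.9 RPKM against 37.2, 38.0 and 40.5 RPKM. Its log2 difference was 0.03 ± 0.04 (95% interval -0.07 to 0.13), with overlap again. Each of these 4 genes rests on 1533 to 2647 recovered reads per library, and their coefficients of variation within a group ran from 2.02% to 5.88%, against 2.00% to 2.38% from counting alone.

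**Figure D2:**
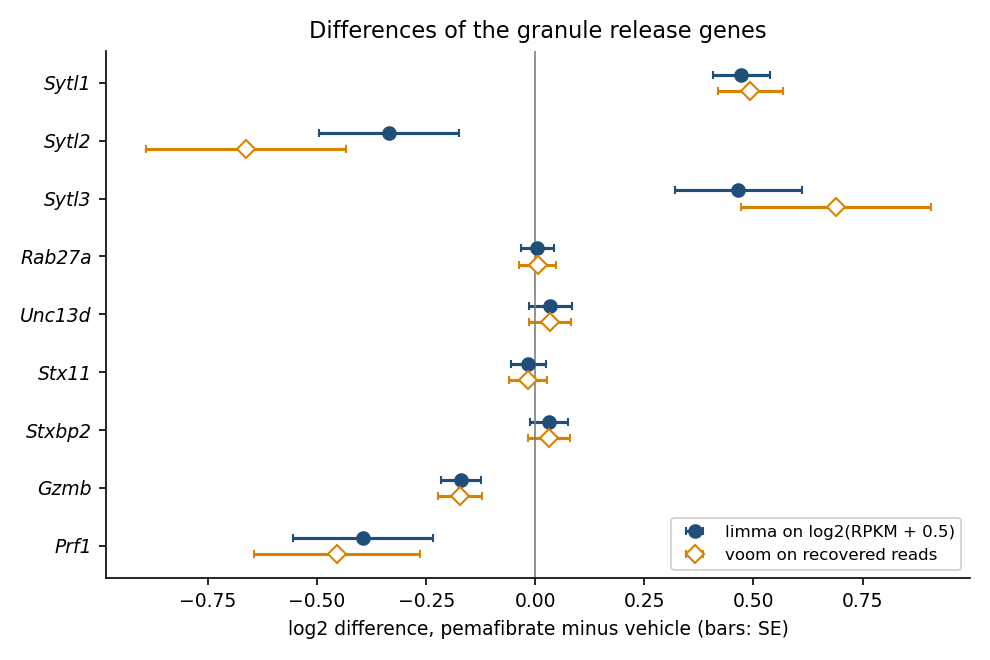
Log2 difference between pemafibrate and vehicle (horizontal axis, bars are SE) of each member by limma on log2(RPKM + 0.5) (filled circles) and by voom on the recovered reads (open diamonds). Sytl1 lies at 0.47 and 0.49 by the 2 fits, the 4 genes from Rab27a to Stxbp2 lie within 0.04 of 0, and the low genes Sytl2 and Sytl3 lie farther from 0 by voom.

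The RNA of both granule protein genes had lower means after pemafibrate. Gzmb (chromosome 14, 56258836 to 56262334, minus strand) measured 67.4, 71.2 and 65.0 RPKM in vehicle 3, 4 and 7 and 58.1, 61.7 and 60.9 RPKM in pemafibrate 3, 7 and 8. The pemafibrate samples lay wholly below the vehicle samples, with pemafibrate 7 the nearest to them. The means of 67.9 ± 3.12 and 60.2 ± 1.90 RPKM (SD, n = 3 each) differ by -11.2%, a log2 difference of -0.17 ± 0.05. Prf1 (chromosome 10, 61297751 to 61304684, plus strand) measured 2.21, 3.28 and 3.26 RPKM in vehicle and 2.52, 1.86 and 1.87 RPKM in pemafibrate. Here the groups overlapped, since vehicle 3 lay below pemafibrate 3, and the log2 difference was -0.39 ± 0.16. The coefficients of variation of Prf1, 21.1% and 18.2%, were larger than the 9.79% and 11.7% that counting alone gives at its 57 to 116 recovered reads.

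Granzyme B RNA far exceeded perforin RNA per length in every sample. The ratio of Gzmb to Prf1 was 30.6, 21.7 and 19.9 for vehicle 3, 4 and 7 and 23.0, 33.2 and 32.5 for pemafibrate 3, 7 and 8, with overlap between the groups. In bulk RNA, fewer cells that express a gene and less of its RNA per cell cannot be told apart.

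In 4 of the 9 members the groups did not overlap, against 15.0% of all tested genes. Sytl1 and Sytl3 lay above, as did 7.67% of all tested genes, and Sytl2 and Gzmb below, as did 7.31%. Sytl2 is in this count only because the vehicle group brought its mean to the level needed for the fit. The contrast was used to choose the members, and these shares are given for that reason only. Of the 9 log2 differences 5 were above 0 and 4 below, with a median of 0.0050, against a median of 0.0052 over all 11360 genes.

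Markers of CD8 T and natural killer cells, the classical granule-bearing types, were higher in sum after pemafibrate. The 12 markers summed to 42.2 to 48.0 RPKM in vehicle and 53.2 to 57.1 RPKM in pemafibrate, without overlap. Klra8 was at 0 in every sample, Ncr1 and Klrb1c were at 0 in every pemafibrate sample and at most at 0.0395 RPKM in vehicle, and Eomes measured 0.112 and 0.141 RPKM. Cd8a measured 1.45 ± 0.167 and 1.55 ± 0.202 RPKM (SD, n = 3 each), far below the level of Cd4. The highest of the 12 were Klrd1 (17.8 and 20.2 RPKM), Klrc1 (12.2 and 16.6) and Xcl1 (4.99 and 8.30), in vehicle and pemafibrate, while Klre1 measured 3.90 and 2.70 RPKM. None of the 7 tested markers passed limma's threshold. An unadjusted p under 0.05 was found for 3 of the 7, against 9.67% of all tested genes. Of these 3, 2 were higher and 1 lower, where 4.76% of all tested genes were higher and 4.90% lower at that p. Voom called 1 of 7, Klrc1, as higher (adjusted p = 0.0268), against 1.25% of all genes. The authors' deposited table called 2 of the 12, Klrc1 and Xcl1, both as higher, against 1.19% of all genes. The part of such cells in the values of the members was not tested.

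The other genes of the pathway were taken from 7 lists by role, 124 genes of which 123 are in the table and 99 were tested. Of these 99, limma called 0. An unadjusted p under 0.05 was found for 11 of the 99, against 9.67% of all tested genes. Of these 11, 7 were higher and 4 lower, where 4.76% of all tested genes were higher and 4.90% lower at that p. Voom called 2 of 103, Serpinb6a as higher and Ctsw as lower, against 1.25% of all genes. The authors' deposited table called 4 of 123, the same pair with Fasl as higher and Runx3 as lower, against 1.19%. None of these counts is read as particular to the lists. The median log2 difference of the 99 was -0.0040, with 49 above 0 and 50 below, and in 20 of them the groups did not overlap, against 15.0% of all tested genes.

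**Figure D3:**
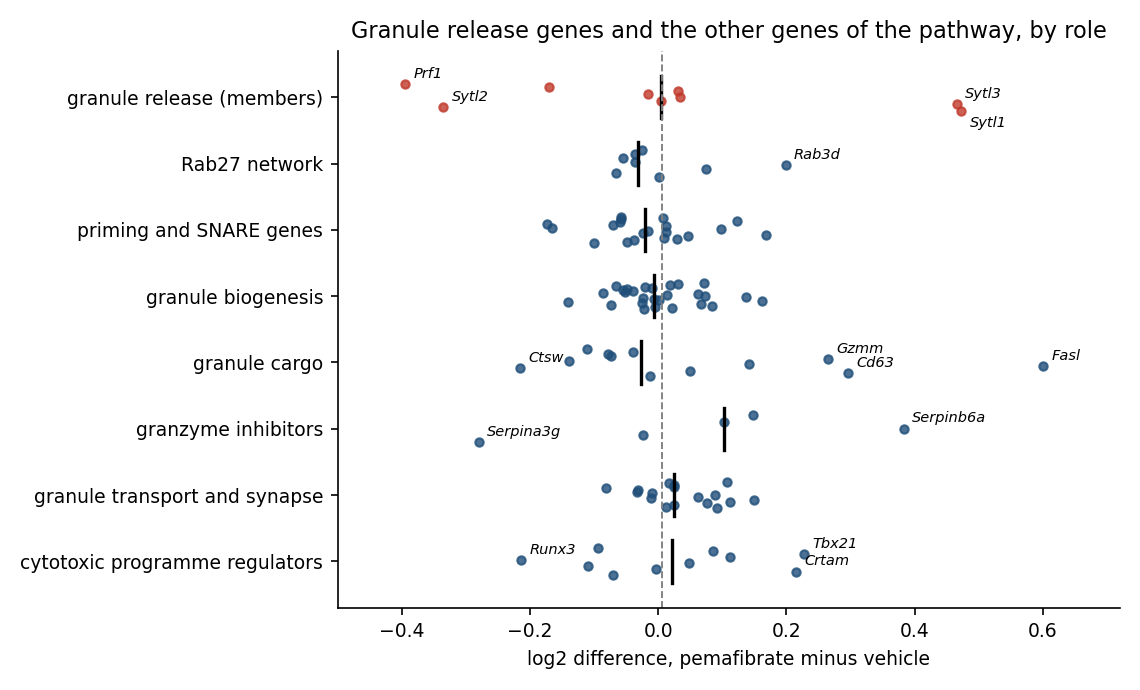
Log2 difference between pemafibrate and vehicle (horizontal axis) of each tested gene, as a point, for the 9 members (red) and the 7 lists of other pathway genes (blue), with each list's median as a black bar and the median of all 11360 tested genes as a dashed line. The genes of the Rab27 network, priming, biogenesis and transport lists lie between -0.17 and 0.20, and the farthest above 0 among the other pathway genes are Fasl at 0.60 and Serpinb6a at 0.38.

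In the cargo list, 12 of 18 genes were tested, with 0 called by limma, 3 whose unadjusted p was under 0.05 (9.67% of all tested genes), 1 called by voom (1.25% of all genes) and a median log2 difference of -0.03. Ctsw, the gene for cathepsin W, a lymphocyte protease, measured 94.1, 87.4 and 92.3 RPKM in vehicle 3, 4 and 7 and 80.5, 79.8 and 75.2 RPKM in pemafibrate 3, 7 and 8, without overlap. Its log2 difference was -0.22 ± 0.04 (limma adjusted p = 0.114), and with voom it fell (adjusted p = 0.0435). Fasl, the death ligand gene, measured 2.20, 1.30 and 2.21 RPKM against 3.56, 3.08 and 2.66 RPKM, also without overlap. Its log2 difference of 0.60 ± 0.18 did not pass limma (adjusted p = 0.288) or voom (0.128), and the adjusted p in the authors' deposited table was 0.0151. Srgn, the gene for serglycin, the proteoglycan that packs granule proteins, measured 631 ± 6.89 and 585 ± 29.8 RPKM (limma adjusted p = 0.509 for a log2 difference of -0.11 ± 0.05).

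Among the other granzymes, Gzma measured 7.01 and 7.75 RPKM and Gzmc 5.39 and 4.88, with overlap in both. Gzmd, Gzmf, Gzmg and Gzmn were at 0 in all samples. Gzmb thus had the highest level of the granzyme genes listed here in both groups. Nkg7, a granule membrane protein gene, measured 2.77 and 2.66 RPKM, and the lysosomal membrane protein gene Lamp1 66.9 and 63.8 RPKM.

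Of the granzyme inhibitor list, 5 of 7 genes were tested and 0 were called by limma, while 1 had an unadjusted p under 0.05 (9.67% of all tested genes) and was called by voom (1.25%). That gene, Serpinb6a, an intracellular serine protease inhibitor gene, measured 28.4, 26.5 and 28.1 RPKM in vehicle 3, 4 and 7 and 39.0, 37.9 and 32.1 RPKM in pemafibrate 3, 7 and 8. The groups did not overlap, and pemafibrate 8 lay nearest to vehicle. Its log2 difference was 0.38 ± 0.07 (limma adjusted p = 0.1004), and it rose by voom (adjusted p = 0.0150). Without pemafibrate 8 Serpinb6a passed limma too (0.0329). With any other single sample left out it did not pass (limma adjusted p from 0.211 to 0.367). Serpinb9, the gene for the granzyme B inhibitor, measured 1.36 and 1.57 RPKM (limma adjusted p = 0.729 for a log2 difference of 0.15 ± 0.10). Serpina3g, a protease inhibitor gene, measured 1.11 and 0.837 RPKM (limma adjusted p = 0.624).

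The machinery lists held 0 calls by limma and 0 by voom. In the Rab27 network, with 8 of 15 genes tested, none had an unadjusted p under 0.05. Rab3d, a secretory GTPase gene, measured 2.60 and 3.06 RPKM, Myo5a, the gene for the motor myosin Va, 21.7 and 20.7 RPKM, and Tbc1d10a, which encodes a GTPase-activating protein for Rab27a, 21.7 and 20.9 RPKM, with limma adjusted p of 0.565, 0.666 and 0.782. Rab27b, the second Rab27 gene, had 0 to 3 recovered reads per library.

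Among priming and SNARE genes, 20 of 24 were tested and 2 had an unadjusted p under 0.05, a share near the 9.67% of all tested genes. The vesicle SNARE gene Vamp3 measured 29.5 ± 0.846 and 32.2 ± 0.787 RPKM (limma adjusted p = 0.374 for a log2 difference of 0.12 ± 0.04). Napa, which encodes a SNARE recycling factor, measured 52.7 and 49.1 RPKM (limma adjusted p = 0.516). Vamp8, another vesicle SNARE gene, measured 93.4 ± 4.71 and 93.9 ± 4.51 RPKM.

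In granule biogenesis, with 27 of 29 tested, 2 genes had an unadjusted p under 0.05, a share below the 9.67% of all tested genes. The 3 genes of smallest p encode subunits of BLOC-1, a complex that sorts cargo to lysosome-related organelles. Bloc1s2 measured 47.3 and 53.0 RPKM (limma adjusted p = 0.215 for a log2 difference of 0.16 ± 0.04) and Bloc1s6 9.41 and 10.4 RPKM (0.14 ± 0.06, limma adjusted p = 0.486). Bloc1s1, for another subunit, had the opposite sign, at 53.9 and 48.8 RPKM (-0.14 ± 0.06, limma adjusted p = 0.521). The other BLOC-1 genes of the list, Bloc1s3, Bloc1s4, Bloc1s5 and Dtnbp1, had log2 differences of 0.00068, -0.0062, -0.024 and 0.073. In each of these the groups overlapped. Among genes of granule transport and the immune synapse, 17 of 18 were tested and 1, Dock8, an activator of the GTPase Cdc42, had an unadjusted p under 0.05, also below that share. Dock8 measured 23.0 and 25.6 RPKM (limma adjusted p = 0.423), Coro1a, an actin regulator gene, 575 and 622 RPKM (0.565), and Wipf1, whose product binds the actin regulator WASP, 34.9 and 37.6 RPKM (0.593).

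Of regulators of the cytotoxic programme, 10 of the 12 genes in the table were tested, with 0 called by either limma or voom and 2 whose unadjusted p was under 0.05, against 9.67% of all tested genes. Runx3, a factor that drives cytotoxic genes in CD8 T cells, measured 38.3, 44.0 and 39.6 RPKM in vehicle 3, 4 and 7 and 32.6, 36.8 and 35.5 RPKM in pemafibrate 3, 7 and 8. The groups did not overlap, but the log2 difference of -0.21 ± 0.07 did not pass limma (adjusted p = 0.318) or voom (0.109), while the adjusted p in the authors' deposited table was 0.0104. Crtam, a surface receptor gene of cytotoxic CD4 cells, measured 1.62 and 1.96 RPKM (limma adjusted p = 0.508). Il2ra, the gene for the interleukin 2 receptor alpha chain, measured 687 and 637 RPKM (limma adjusted p = 0.527).

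The 5 tested genes whose log2(RPKM + 0.5) followed that of Sytl1 most closely over the 6 samples were Gpr146, Pmvk, Alg14, Tns1 and Clpp, with Pearson r of 0.996, 0.995, 0.991, 0.989 and 0.987. The samples form 2 groups, so these r values rest largely on the difference between them and are given only as the measure of likeness. Tns1, the gene for the focal adhesion protein tensin 1, measured 2.29, 2.49 and 2.44 RPKM in vehicle 3, 4 and 7 and 3.17, 3.24 and 3.27 RPKM in pemafibrate 3, 7 and 8. Gpr146, an orphan receptor gene, measured 13.7 and 15.5 RPKM, Pmvk, of the mevalonate pathway, 22.0 and 23.2 RPKM, Alg14, of protein glycosylation, 5.49 and 6.79 RPKM, and Clpp, a mitochondrial protease gene, 35.2 and 37.0 RPKM. All 5 shared with Sytl1 a lowest value in vehicle 3 and a highest in pemafibrate 8, and none of the members was among them.

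**Figure D4:**
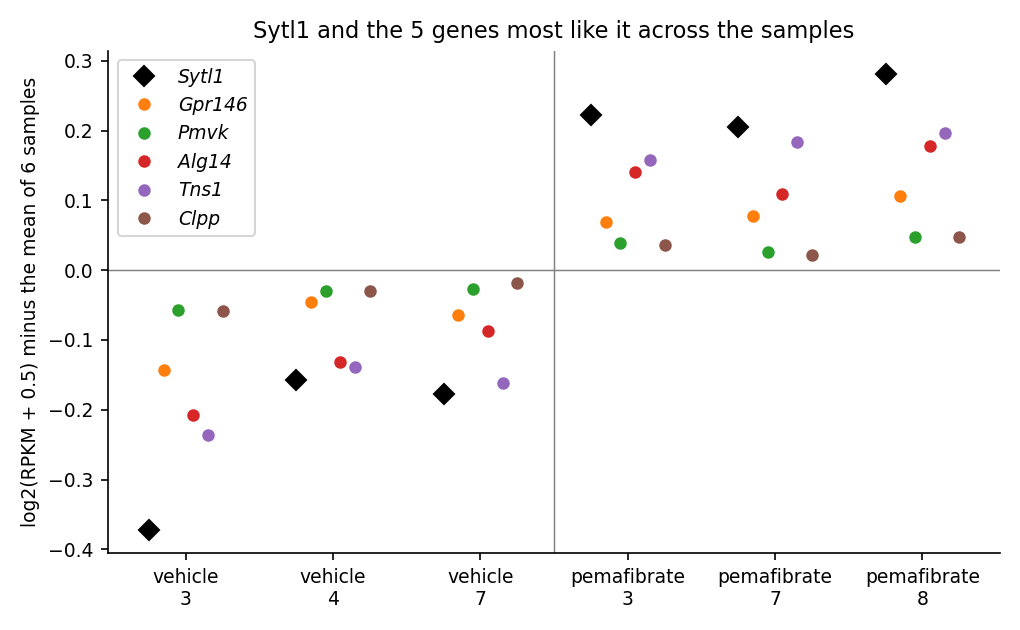
Log2(RPKM + 0.5) minus its mean over the 6 samples (vertical axis) in each sample (horizontal axis) for Sytl1 (black diamonds) and the 5 genes most like it (coloured circles), with the vehicle samples left of the grey line. Vehicle 3 is the lowest and pemafibrate 8 the highest for all 6 genes, and Sytl1 spans the widest range.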

How the data were processed

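The authors deposited 1 table, with RPKM values of 24421 genes in the 6 samples. Beside them, per the file headers, are a log2 fold change and a p-value of the authors' comparison, raw and adjusted. An other kind of column, the authors' deposited rank, was not used. The submitters' processing notes name HISAT2 2.1.0, Trimmomatic 0.35, edgeR, featureCounts 1.4.6 and bcl2fastq, with GRCm38 and mm10 as builds. How strand was set in counting, and with which annotation, is not given in the sources used here.

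The test was limma's (3.58.1, R 4.3.3), with a trend in its prior variance, on log2(RPKM + 0.5) of the 11360 genes whose mean reached 0.5 RPKM, with Benjamini-Hochberg adjustment over all of them and a threshold of 0.05. On that scale the change of low genes is understated. Read numbers were recovered from the RPKM values, which were whole multiples of 1 step per gene and sample (100% of nonzero values, relative tolerance 1e-06), and gave library sizes of 14935351 to 18322467 reads. Their precision covers counting error only. Voom, an alternative, used these reads, for genes averaging 10 or more. The fit was run on simulated data first. The rule for passing did not ask whether changes as small as those of the members are found. Other alternatives changed the pseudocount, the filter, the scaling, the replicate block and the samples.

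The members and the lists were chosen with earlier results of these data known. Genes are named by a rule: all 9 members, in each of the 7 pathway lists the called genes or otherwise the 3 with the smallest p, and the 5 most like Sytl1. Other list members are named for a level or count and were picked with their values in view. All 9 members matched a RefSeq symbol (GRCm38.p6). Python 3.11.15 with matplotlib 3.10.9 drew the figures.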

Additional observations from a re-analysis of the deposited data

How the results depend on the processing

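Each of the 9 members kept the sign of its log2 difference in all alternatives that could be run, except Rab27a, Stx11 and Stxbp2, whose values lie near 0. The log2 difference of Sytl1 ran from 0.40 to 0.51 over 14 alternatives. It was not past the threshold with no filter, with the replicate block or with any 1 sample left out. Values that moved by more than 1 SD between replicates were those of Sytl2, to -0.56 with a pseudocount of 0.1 and -0.66 with voom, of Sytl3, to 0.69 with voom, and of Stxbp2, to -0.021 with the replicate block; for the low genes the pseudocount is of the size of the level. A filter at 2 RPKM leaves Sytl2 and Sytl3 untested. The count of 40 called genes became 7 with no filter, 148 with voom and 0 to 25 with 1 sample left out: leaving out vehicle 3, 4 or 7 gave 2, 8 and 19, and leaving out pemafibrate 3, 7 or 8 gave 25, 0 and 17. The cargo list went from 0 calls to 1 with voom, and the inhibitor list from 0 to 1 with voom and to 0 to 1 with 1 sample left out. The cause was not tested. The title numbers 3 and 7 occur in both groups; with them as a replicate block limma called 0 genes, at 1 residual degree of freedom, and the log2 difference of Sytl1 was 0.49. Deviations from the group means correlated at 0.0304 for the samples numbered 3 and -0.0083 for those numbered 7. For samples of unlike number they ran from -0.22 to 0.199. With 3 samples per group these correlations constrain each other, so they cannot decide whether the numbers pair the samples. The labels do not say so either, and the main fit left the samples unpaired. Counting error limits Sytl2 and Sytl3 most, with 26 to 74 recovered reads per library.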

Other observations

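Unc13a, the gene for Munc13-1, the priming factor best known from neurons, was measured at 6.94, 5.89 and 7.76 RPKM in vehicle 3, 4 and 7 and at 6.69, 5.90 and 5.45 RPKM in pemafibrate 3, 7 and 8, on 702 to 1068 recovered reads per library. The groups overlapped (log2 difference -0.17 ± 0.11, limma adjusted p = 0.718). Its level lay above that of Prf1, Sytl2 and Sytl3 in every sample and below that of its paralog Unc13d, while the third paralog, Unc13b, measured 0.143 and 0.130 RPKM. Vamp7, a vesicle SNARE gene, and Cadps2, a priming factor gene, were listed at 0 in all 6 samples, and whether these values reflect expression was not tested.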
